A study of Mus musculus with 12 samples.

Results

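The genes analysed were the potassium channel genes of the mouse hippocampus, taken as the genes whose symbol begins with Kcn in the array's annotation. Of 19938 genes with a probe set of their own, 92 had such a symbol. A gene with more than 1 probe set was represented by the one with the highest mean over the 12 arrays, which applied to 3 genes (Kcna2, Kcnh8 and Kcnma1). By symbol, 35 genes encode pore-forming alpha subunits of voltage-gated channels, 12 their auxiliary subunits, 15 inward rectifiers, 14 two-pore channels and 9 subunits of calcium-activated channels. The other 7 were Kcnt1, Kcnt2, Kcnu1, Kcnrg and the opposite-strand transcripts Kcnd3os, Kcnmb4os1 and Kcnmb4os2.

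Each of 12 mice gave 1 array, with 3 mice in each of 4 groups. Mutant pilocarpine mice carried floxed Srf on both alleles together with CaMKCreERT2 and had seizures after pilocarpine, but no status epilepticus (SE), the state of lasting seizure activity. Mutant controls had the same genotype and received Ringer solution instead. Het SE mice carried 1 floxed Srf allele and CaMKCreERT2 and spent 40 min in SE after pilocarpine, and het controls of that genotype received Ringer solution. The labels call the het mice WT or control. All mice were 7 to 10 weeks old, on a C57/Bl6 background and tamoxifen-injected, so that the het controls had lost 1 Srf allele too. The Cre is driven by the Camk2a promoter and deletes Srf, the gene of serum response factor, in glutamatergic forebrain neurons, while other cells keep it. Pilocarpine, a muscarinic agonist, was given at 335 or 350 mg/kg after 1 mg/kg methyl scopolamine; which mouse had which dose is not stated. Since none of the mutant mice analysed here reached SE, genotype and SE cannot be told apart in the difference between the 2 pilocarpine effects, and the time from injection to harvest of these mutants is not given.

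Potassium channels let potassium leave neurons and so bring the membrane back toward rest. Voltage-gated channels repolarise action potentials, inward rectifiers and two-pore channels hold the resting potential, and calcium-activated channels follow the calcium that enters with each spike. Loss of a channel such as Kv1.1 (Kcna1) causes seizures in mice, and many of these channels are regulated by neuronal activity.

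The level given for a gene is the deposited log2 value of its probe set, in which a difference of 1 is a doubling in signal. Levels were compared between mice and never between genes, since probe sets differ in brightness. A gene was called changed at an adjusted p under 0.05 in the limma fit over 23410 probe sets. Srf itself lay at 8.83 to 8.90 in mutant pilocarpine mice and 8.80 to 8.96 in mutant controls, below the 10.17 to 10.27 of het SE mice and the 9.53 to 9.60 of het controls. Fos, an activity-induced gene, lay at 9.58 to 9.95 in mutant pilocarpine mice against 6.79 to 7.36 in mutant controls, and at 11.98 to 12.06 in het SE mice against 6.62 to 6.77 in het controls. Markers of excitatory neurons averaged 12.56 to 12.64 in mutant pilocarpine mice, 12.56 to 12.68 in mutant controls, 12.48 to 12.57 in het SE mice and 12.60 to 12.67 in het controls, with none of 4 called by limma. Those of CA1 and CA3 were not called either, and the CA3 marker Iyd was dim, at 6.87 to 7.53. With SE, 1 of 7 inhibitory neuron markers was called higher and 1 of 3 striatum markers lower. Striatum markers averaged 7.59 to 7.89 in het SE mice and 7.84 to 7.98 in het controls. Thalamus markers averaged 8.48 to 8.51 in mutant pilocarpine mice, 8.41 to 8.54 in mutant controls, 8.60 to 9.22 in het SE mice and 8.59 to 9.03 in het controls. Het SE mouse 1 and het control mouse 1 stood apart in them, with Tcf7l2 at 8.72 and 8.50, well above the others. Xist was above 9 in 1 of 3 mutant pilocarpine mice, 2 of 3 mutant controls, 0 of 3 het SE mice and 1 of 3 het controls, so sex was not balanced. Total hippocampal RNA was measured, so that fewer cells of a type and less RNA per cell cannot be told apart, and p values measure the spread between these mice.

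After 40 min of SE, most potassium channel genes in het mice were within small margins of het controls, and a few stood out. Kcnj2, Kcne4 and Kcnf1 rose, and Kcnv1, Kcns2, Kcna3 and Kcnip1 fell. These were 3 of 92 genes higher, where 5.08% of all probe sets were called higher, and 4 of 92 lower, where 6.93% were called lower. The share of changed potassium channel genes was thus not above that of the array as a whole. An unadjusted limma p under 0.05 was reached by 15 of the 92 and by 5580 of all 23410 probe sets. The median change of the 92 genes was -0.03 (log2), against -0.03 over all probe sets tested. By subfamily, 1 of 35 voltage-gated alpha genes was called higher and 3 lower, 1 of 12 auxiliary genes higher and 1 lower, and 1 of 15 inward rectifiers higher. None of the 14 two-pore, 9 calcium-activated or 7 other genes was called in this comparison at an adjusted p under 0.05 with limma, where 2, 0 and 1 of them had an unadjusted p under 0.05. For 88 of the 92 genes the 95% interval of the change lay within 1.5-fold in both directions. Kcnj2, Kcne4, Kcnf1 and Kcnj13 were the exceptions. All 3 het SE mice lay above all 3 het controls for 3 genes and below them for 13, where 10.6% and 19.8% of all probe sets did so.

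**Figure D1:**
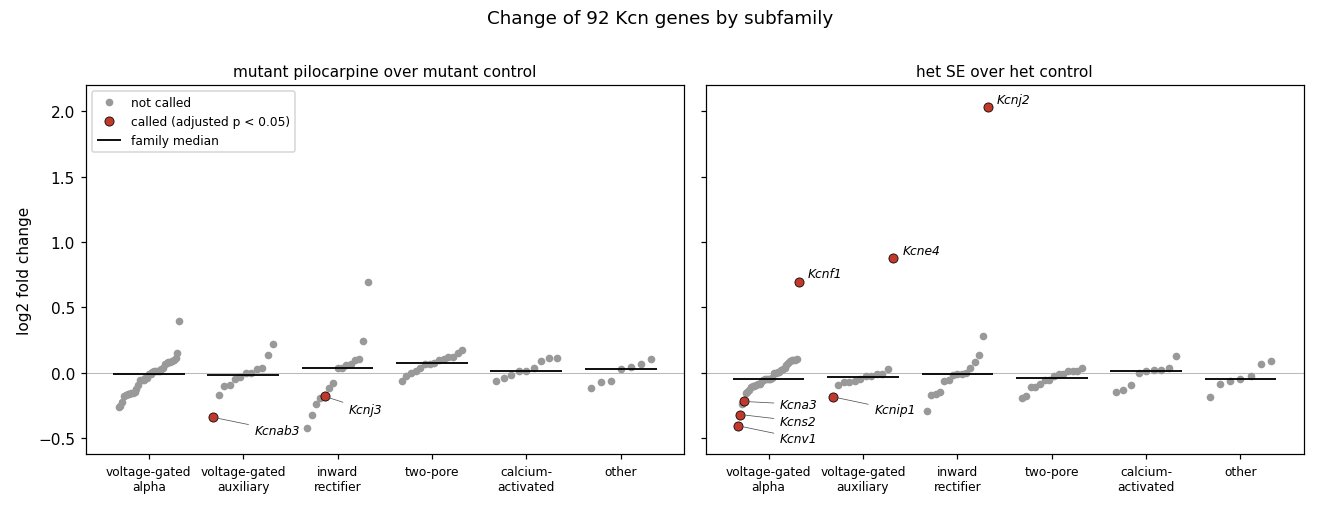
Log2 fold change of each of 92 potassium channel genes (points) by subfamily, mutant pilocarpine over mutant control mice on the left and het SE over het control mice on the right, with red points for genes called with limma and a line at each subfamily median. Kcnj2, Kcne4 and Kcnf1 lie above the other genes in het SE mice, while medians of all subfamilies are close to 0 in both panels.

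Kcnj2 encodes Kir2.1, a strong inward rectifier that stabilises the resting potential. Its level was 8.97, 9.81 and 9.79 in het SE mice, against 7.48, 7.53 and 7.46 in het controls. All 3 het SE mice lay well above every control, and mouse 1 was the lowest of them. The rise was 2.03 (log2, standard error 0.19), or 4.08-fold, with an adjusted p of 1.86e-05 from limma. Without het SE mouse 1 it was 2.30 (adjusted p = 3.5e-07, limma). In Srf mutants the level was 6.87, 7.14 and 6.99 in mutant pilocarpine mice, against 7.48, 7.68 and 7.11 in mutant controls. These groups overlapped, and the change of -0.42 was not called (adjusted p = 0.334, limma; 95% interval -0.84 to -0.00). The effect of pilocarpine in mutants differed from that in het mice by -2.45 (log2, standard error 0.27, adjusted p = 0.000236, limma interaction), the difference of largest size among the 92 genes. Kcnj2 was the sole inward rectifier called in het SE mice. For Kcnj4, which encodes the related Kir2.3, the value was 0.14 (adjusted p = 0.33, limma).

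Kcne4 encodes a single-pass auxiliary subunit that reduces the current of several voltage-gated channels when co-expressed with them. Its level was 6.78, 6.50 and 6.57 in het SE mice and 5.75, 5.72 and 5.75 in het controls, without overlap. The rise of 0.88 (log2, standard error 0.066, 1.84-fold) had the lowest adjusted p of the 92 genes (2.26e-06, limma). In mutant pilocarpine mice the level was 5.65, 5.54 and 5.70, and in mutant controls 5.69, 5.71 and 5.76. The mutant change of -0.09 was not called (adjusted p = 0.57, limma), and it differed from the het change by -0.97 (adjusted p = 6.5e-05, limma interaction). Kcne4 was dim, below the median of all probe sets tested, 7.69, in all 12 mice. The 4 other Kcne genes did not pass the test in het SE mice.

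Kcnf1 encodes Kv5.1, which makes no channel alone and modifies other voltage-gated channels. It rose in het SE mice, with levels of 9.96, 9.46 and 9.81 against 8.87, 9.19 and 9.07 in het controls. The groups did not overlap, and the change was 0.70 (log2, standard error 0.16, 1.62-fold, adjusted p = 0.0142, limma). The call was lost without het SE mouse 1 (0.59, adjusted p = 0.0597), het SE mouse 3 (adjusted p = 0.056) or het control mouse 1 (0.61, adjusted p = 0.0631, all limma). Mutant pilocarpine mice were at 9.68, 9.41 and 9.28, and mutant controls at 8.86, 8.89 and 9.43, with overlap from 1 control. The mutant change of 0.40 was not called (adjusted p = 0.276, limma), and it was not shown to differ from the het change (-0.30, 95% interval -0.80 to 0.21).

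**Figure D2:**
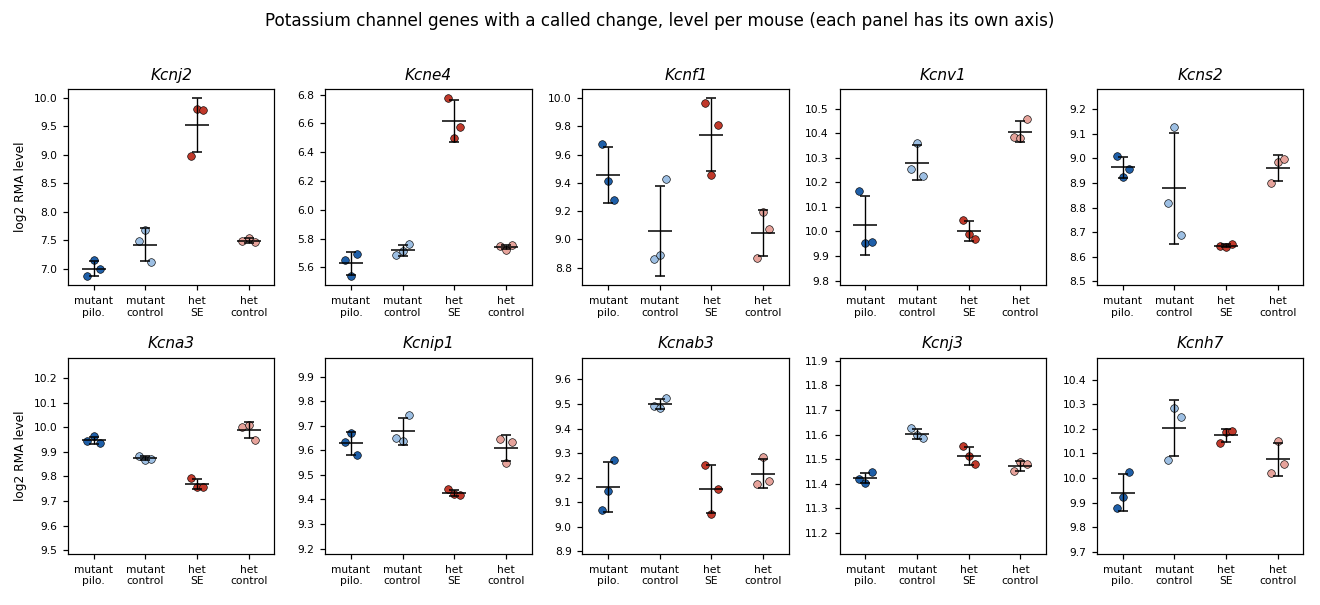
Log2 level of the 10 potassium channel genes with a call for SE, for pilocarpine in mutants or for the difference of both effects, 1 point per mouse in 4 groups of 3, with bars for mean and SD. Kcnj2 and Kcne4 are high in the 3 het SE mice alone, and Kcnab3 and Kcnj3 are highest in the mutant controls.

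The sequence before the start of the 3 genes that rose was read for sites of transcription factors known from neuronal activity. Windows of 300 bases, 250 before the RefSeq start and 50 after it (GRCm38.p6), were found for 70 of the 92 genes. The 250 bases before the start are given in the direction of the gene, with matches in capitals, for Kcnj2 (chr11:111065914-111066163, plus strand), Kcne4 (chr1:78816661-78816910, plus strand) and Kcnf1 (chr12:17176889-17177138, minus strand):
Kcnj2: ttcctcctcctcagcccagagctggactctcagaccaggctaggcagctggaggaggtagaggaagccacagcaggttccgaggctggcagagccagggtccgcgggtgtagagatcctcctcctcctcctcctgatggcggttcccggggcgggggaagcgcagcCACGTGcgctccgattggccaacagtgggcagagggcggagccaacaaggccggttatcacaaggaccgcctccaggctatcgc
Kcne4: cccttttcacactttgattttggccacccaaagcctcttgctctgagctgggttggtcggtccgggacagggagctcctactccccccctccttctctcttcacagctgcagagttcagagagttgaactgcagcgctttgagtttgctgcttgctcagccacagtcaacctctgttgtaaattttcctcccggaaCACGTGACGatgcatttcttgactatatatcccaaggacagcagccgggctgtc
Kcnf1: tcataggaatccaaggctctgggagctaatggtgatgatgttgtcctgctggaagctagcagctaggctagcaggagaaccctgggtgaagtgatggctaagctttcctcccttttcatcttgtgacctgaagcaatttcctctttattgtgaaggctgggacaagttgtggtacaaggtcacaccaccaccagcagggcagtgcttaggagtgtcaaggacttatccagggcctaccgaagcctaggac
Kcnj2 had an E-box (CACGTG) at -84 to -79 from its start. Kcne4 had an E-box at -54 to -49, which overlapped a cyclic AMP response element half-site (TGACG) at -50 to -46. Kcnf1 held none of the motifs searched. On either strand, 7.15% of all 32817 mouse windows held the E-box and 20.8% the half-site. Of the 70 potassium channel genes with a window, 6 held the E-box and 17 the half-site. A gene was counted if any of its windows held a match, and some genes had several. The percentages given are per window, so counts of genes and these shares are not the same measure. The SRF CArG box was in 0 of the 70 genes (1.63% of all windows), as was the full response element TGACGTCA (0 genes, 1.79% of windows). TGANTCA, bound by AP-1, was in 4 genes (7.81% of windows) and GCGNGGGCG, bound by EGR factors, also in 4 genes (5.56%). The window of Kcna3, which fell, held no match. These are matches of letters in short windows, and binding was not measured.

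Of the genes that fell in SE, Kcnv1 changed most. It encodes Kv8.1, another subunit that forms no channel alone and modifies other voltage-gated channels. Its level was 10.05, 9.99 and 9.97 in het SE mice, against 10.38, 10.38 and 10.46 in het controls. The fall of -0.40 (log2, standard error 0.061, adjusted p = 0.000739, limma) left no overlap. In mutant pilocarpine mice Kcnv1 was at 10.16, 9.95 and 9.96, against 10.25, 10.36 and 10.22 in mutant controls, again without overlap. The mutant change of -0.25 missed the threshold (adjusted p = 0.0573, limma), and its difference from the het change was 0.15 (95% interval -0.04 to 0.34, adjusted p = 0.442, limma). Kcnv1 was thus lower in all 3 pilocarpine mice of each genotype than in their controls.

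Kcns2 encodes Kv9.2, a further modifier of this kind. It lay at 8.64, 8.64 and 8.65 in het SE mice and at 8.901, 8.986 and 8.999 in het controls. The change of -0.32 (standard error 0.085, adjusted p = 0.0286, limma) was lost in 7 of 23 alternatives, with adjusted p values between 0.00113 and 0.0976 over all of them. Mutant pilocarpine mice had 9.01, 8.92 and 8.96 and overlapped with mutant controls at 8.82, 9.13 and 8.69. Kcnf1, Kcnv1 and Kcns2 all belong to the electrically silent alpha subunits (Kcnf, Kcng, Kcns and Kcnv genes), a grouping made after their values were seen. Of the 10 silent subunits 3 were called in het SE mice, and of the 25 conducting alpha subunits 1 was, Kcna3, where 5.08% of all probe sets were called higher and 6.93% lower. The difference between these groups was not tested. Excitatory neuron markers were also lower on average in het SE mice than in het controls, as given above, and their part in the values of Kcnv1 and Kcns2 was not tested. The silent ones ranged from -0.40 to 0.70 and did not move in 1 direction, with 1 higher and 2 lower.

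Kcna3 encodes Kv1.3, a delayed rectifier of neurons, lymphocytes and microglia. It had 9.79, 9.76 and 9.76 in het SE mice against 10.00, 10.01 and 9.95 in het controls. The fall of -0.22 (log2, standard error 0.037, adjusted p = 0.0018, limma) was small but well beyond a narrow spread. In mutant pilocarpine mice the level was 9.94, 9.96 and 9.94, above the 9.88, 9.87 and 9.87 of mutant controls, although this change of 0.07 was not called (adjusted p = 0.393, limma). The mutant change differed from the het change by 0.29 (standard error 0.052, adjusted p = 0.00786, limma interaction). Kcna3 was also lower in mutant controls than in het controls in every mouse (-0.11, not called, adjusted p = 0.44, limma). Of 5 microglia markers 2 were called lower in het SE mice, with a list mean of 8.52 to 8.58 in het SE mice and 8.61 to 8.69 in het controls. Their part in the change of Kcna3 was not tested.

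Kcnip1 encodes KChIP1, a calcium-binding partner of Kv4 channels found in interneurons. It lay at 9.44, 9.42 and 9.42 in het SE mice against 9.64, 9.55 and 9.63 in het controls, a change of -0.18 (standard error 0.045, adjusted p = 0.0193, limma). The call was lost in 5 of 23 alternatives (adjusted p 0.00731 to 0.0773), among them without het control mouse 1 or 3 and without het SE mouse 2 or 3. In mutant pilocarpine mice it was at 9.63, 9.67 and 9.58 and in mutant controls at 9.65, 9.64 and 9.74, with overlap. The gene overlaps Kcnmb1 in the genome, and probes of overlapping genes are not always separable. The other Kcnip genes were not called in het SE mice. Adjusted p was 0.59 for Kcnip2 (-0.09), 0.774 for Kcnip3 (-0.07) and 0.929 for Kcnip4 (-0.01, all limma). Inhibitory neuron markers averaged 10.22 to 10.27 in het SE mice and 10.19 to 10.24 in het controls, with 1 of 7 called higher. Sst was higher in every het SE mouse (12.58 to 12.64, against 12.29 to 12.34). Lhx6 was lower in every one (8.54 to 8.71, against 8.73 to 8.76), and the other markers overlapped. The part of these markers in the change of Kcnip1 was not tested.

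In Srf mutants, pilocarpine without SE was followed by 2 called changes of 92, both lower, Kcnab3 and Kcnj3. Over all probe sets 0.965% were called lower and 0.871% higher. An unadjusted limma p under 0.05 was reached by 19 of the 92 genes and by 3470 of all 23410 probe sets. The median change of the 92 was 0.01 (log2). All 3 mutant pilocarpine mice lay above all 3 mutant controls for 9 genes and below them for 12, against 7.04% and 11.4% of all probe sets.

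Kcnab3 encodes a cytoplasmic beta subunit of Kv1 channels. Its level was 9.07, 9.14 and 9.27 in mutant pilocarpine mice, against 9.49, 9.48 and 9.52 in mutant controls. The change was -0.34 (log2, standard error 0.062, adjusted p = 0.0168, limma). In het mice the gene was at 9.25, 9.05 and 9.16 with SE and at 9.17, 9.28 and 9.19 without. The mutant controls were thus the group that stood apart, above all 9 other mice. The call was lost when only the compared groups were fitted (adjusted p = 0.0589) and without mutant pilocarpine mouse 1 or 2 or mutant control mouse 2 (adjusted p up to 0.0788, limma), and the difference of the 2 pilocarpine effects was not called (-0.28, adjusted p = 0.12, limma).

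Kcnj3 encodes Kir3.1 (GIRK1), the shared subunit of the G-protein-gated inward rectifiers through which transmitters inhibit neurons. It had 11.42, 11.40 and 11.45 in mutant pilocarpine mice against 11.63, 11.60 and 11.58 in mutant controls, a change of -0.18 (standard error 0.038, adjusted p = 0.0368, limma). In het SE mice it was at 11.55, 11.51 and 11.48 and in het controls at 11.45, 11.49 and 11.48, with overlap. The difference of the 2 effects was -0.22 (adjusted p = 0.044, limma interaction). Both calls were fragile, since 8 of 23 alternatives kept the first and 5 of 22 the second. Of its partner subunits, Kcnj9 (GIRK3) had 9.34, 9.29 and 9.29 in mutant pilocarpine mice, below the 9.57, 9.53 and 9.78 of mutant controls. This change of -0.32 missed the threshold (adjusted p = 0.0679, limma), and for Kcnj6 (GIRK2) it was 0.04 (adjusted p = 0.859, limma).

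The difference of the 2 pilocarpine effects was called for 5 of the 92 genes, 1 higher (Kcna3) and 4 lower (Kcnj2, Kcne4, Kcnj3 and Kcnh7), where 1.47% of all probe sets were called higher and 2.12% lower. Kcnh7 encodes Erg3, a channel of the ether-a-go-go group. Its level was 9.88, 9.92 and 10.02 in mutant pilocarpine mice and 10.07, 10.29 and 10.25 in mutant controls, while het SE mice had 10.14, 10.19 and 10.19 and het controls 10.02, 10.15 and 10.06. The mutant change of -0.26 (adjusted p = 0.052) and the het change of 0.10 (adjusted p = 0.381) were not called, but their difference was (-0.36, standard error 0.086, adjusted p = 0.0399, all limma). It was kept in 11 of 22 alternatives and lost, among others, without het SE mouse 1 (adjusted p = 0.0571) or het control mouse 1 (adjusted p = 0.0952, limma). Kcnh7 overlaps Gca in the genome.

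**Figure D3:**
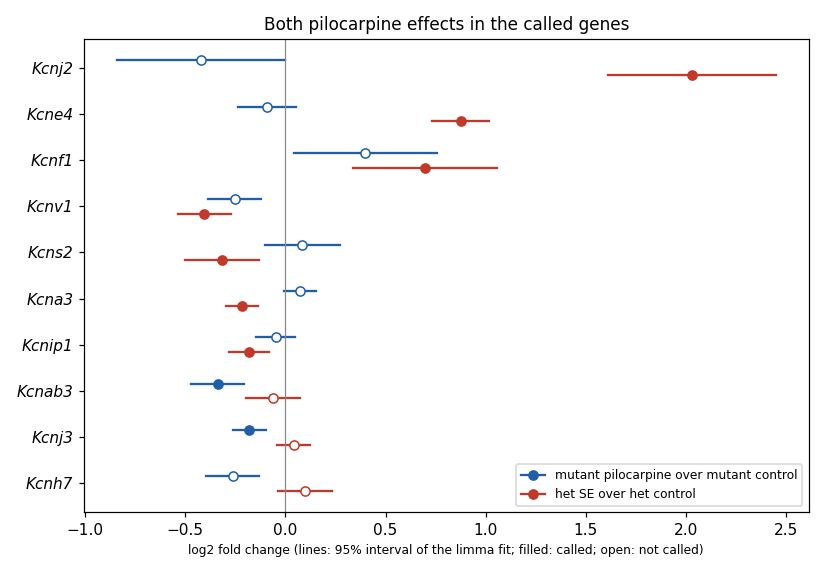
Log2 fold change with its 95% limma interval for 10 genes, with the mutant effect (mutant pilocarpine over mutant control, blue) above the het effect (het SE over het control, red) for each gene. Filled points mark called changes. Kcnj2 and Kcne4 rose in het SE mice, with mutant intervals that end at or near 0, while both intervals of Kcnf1 and of Kcnv1 lie on the same side of 0.

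Without pilocarpine, none of the 92 genes was called between mutant controls and het controls by limma. An unadjusted p under 0.05 was reached by 10 of them and by 2043 of all 23410 probe sets. Over all probe sets 0.120% were called. Mutant controls lay above all het controls for 8 genes and below them for 7, against 6.10% and 7.46% of all probe sets. For 91 of the 92 genes the 95% interval lay within 1.5-fold, Kcnj13 being the exception. The largest differences were those of Kcnab3 (0.28, adjusted p = 0.202) and Kcnn2 (0.25, adjusted p = 0.069, both limma).

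Kcnn2 encodes SK2, a small-conductance calcium-activated channel that shapes the afterhyperpolarisation of pyramidal neurons. Its level was 10.11, 10.15 and 10.19 in mutant pilocarpine mice and 10.20, 10.22 and 10.15 in mutant controls, against 9.99, 9.98 and 9.90 in het SE mice and 9.90, 9.99 and 9.94 in het controls. All 6 mutant mice lay above all 6 het mice. Because of this separation a contrast of genotype averaged over both treatments was added, so that its value for Kcnn2 describes a difference already seen. Its pilocarpine part sets mutants without SE against het mice in SE, so genotype and SE are mixed in it. For Kcnn2 the contrast gave 0.22 (log2, standard error 0.031, 1.16-fold, adjusted p = 0.00122, limma), with adjusted p values of 0.000639 to 0.00486 over 22 alternatives. The effect of pilocarpine was small in mutants (-0.04, 95% interval -0.13 to 0.05) and in het mice (0.01, interval -0.08 to 0.11).

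In this averaged contrast 7 of the 92 genes were called, 4 higher and 3 lower in mutants, where 3.31% of all probe sets were higher and 3.08% lower. The lower ones were Kcnj2, Kcne4 and Kcnip4, and in the first 2 the contrast carries the rise of the het SE mice. Kcnip4 encodes KChIP4, which is known to slow the inactivation of Kv4 channels, and was singled out after its values were seen. It had 10.56, 10.63 and 10.64 in mutant pilocarpine mice, 10.77, 10.78 and 10.77 in mutant controls, 10.81, 10.82 and 10.81 in het SE mice and 10.81, 10.86 and 10.79 in het controls. Again all 6 mutant mice were on 1 side of all 6 het mice, the averaged difference was -0.13 (adjusted p = 0.0173, limma), and most of it came from the mutant pilocarpine mice. Within mutants the value for pilocarpine was -0.17 and was not called (adjusted p = 0.0532, limma). Kcnn2 and Kcnip4 were the 2 genes of 92 for which all 6 mutant mice lay on 1 side of all 6 het mice, 1 in each direction, where 0.671% of all probe sets were so placed above and 0.607% below.

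Kcnip1 (0.14, adjusted p = 0.0265), Kcng3 (0.16, adjusted p = 0.0396) and Kcnc1 (0.13, adjusted p = 0.0457, all limma) were the other genes called higher in mutants. Between mutant and het controls Kcnip1 differed by 0.07 (adjusted p = 0.714) and Kcng3 by 0.03 (adjusted p = 0.923, both limma). For both, most of the averaged difference came from the pilocarpine mice, with het SE mice the lowest group. Kcng3 lay at 9.02, 9.04 and 9.19 in mutant pilocarpine mice and at 9.06, 8.90 and 8.96 in mutant controls. Het SE mice had 8.88, 8.76 and 8.75, and het controls 8.93, 8.97 and 8.93. Kcnc1 encodes Kv3.1, the channel of fast-spiking interneurons. It lay at 10.42, 10.48 and 10.43 in mutant pilocarpine mice and at 10.52, 10.44 and 10.33 in mutant controls, and between 10.28 and 10.33 in all het mice. Its call was kept in 7 of 22 alternatives, that of Kcng3, also named after its values were seen, in 10 of 22, and that of Kcnip1 in 14 of 22. Markers of other cells were also called in the averaged contrast, though none was called between mutant and het controls. Those of inhibitory neurons averaged 10.35 to 10.41 in mutant pilocarpine mice and 10.29 to 10.36 in mutant controls, against 10.22 to 10.27 in het SE mice and 10.19 to 10.24 in het controls, with 2 of 7 called higher. The thalamus markers ran the other way, with 1 of 4 called lower. One marker each was also called lower of 4 for dentate granule cells, of 5 for astrocytes and of 5 for microglia, and 1 each was called higher of 5 for endothelium and pericytes and of 7 for choroid plexus. The part of these markers in the differences of these genes was not tested. Without het SE mouse 1 and without het control mouse 1, in which thalamus markers were high, Kcnn2 differed by 0.23 and 0.21, and Kcnip4 by -0.13 in both cases.

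For the other channels known for hippocampal excitability, SE and control levels were close. Kcnd2, for Kv4.2 of the dendritic A-current, lay at 11.87, 12.05 and 11.94 in het SE mice and at 11.87, 11.91 and 11.87 in het controls (0.07, 95% interval -0.05 to 0.20). Kcna1 (Kv1.1) was at 11.73, 11.75 and 11.81 in het SE mice and at 11.75, 11.73 and 11.79 in het controls (0.01, interval -0.11 to 0.12). Kcnq3, an M-current subunit, had 11.02, 11.08 and 11.01 with SE and 11.10, 11.13 and 11.07 in het controls (-0.06, interval -0.19 to 0.06). Kcnma1, the pore of the large-conductance calcium-activated channel, had a value of 0.04 (interval -0.05 to 0.12) and its neuronal subunit Kcnmb4 one of 0.02 (interval -0.09 to 0.13). Kcnn1, for the small-conductance channel SK1, had the change of largest size among calcium-activated genes, with 7.92, 8.14 and 8.07 in het SE mice and 8.23, 8.10 and 8.22 in het controls (-0.14, adjusted p = 0.27, limma). Kcnrg, which regulates voltage-gated channels, had that of the genes outside the subfamilies, with 5.66, 5.53 and 5.51 in het SE mice and 5.82, 5.76 and 5.68 in het controls, without overlap (-0.18, adjusted p = 0.0578, limma). Kcna2 (-0.10), Kcnd3 (0.03), Kcnh1 (0.10), Kcnq5 (-0.05) and Kcnk9 (0.04) were not called in het SE mice either, with adjusted p of 0.234 or more from limma. Kcna4, for Kv1.4, was variable, with 9.25, 8.92 and 8.74 in het SE mice and 8.96, 9.11 and 9.29 in het controls, and its interval of -0.42 to 0.11 leaves larger changes possible.

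The glial and vascular channel genes Kcnj10, Kcnj8 and Kcnk1 were not called in het SE mice. Kcnj10, for Kir4.1 of astrocytes, was at 11.05, 10.80 and 11.07 in het SE mice, below all het controls at 11.17, 11.11 and 11.15, but the change of -0.17 was not called (adjusted p = 0.13, limma). It was also lower in all mutant pilocarpine mice, at 10.98, 11.04 and 11.11, than in mutant controls, at 11.16, 11.15 and 11.17 (-0.12, adjusted p = 0.437, limma). None of the 5 astrocyte markers was called in either comparison, and their mean was 10.79 to 10.83 in het SE mice and 10.79 to 10.88 in het controls. Kcnj8, for Kir6.1 of pericytes and vascular muscle, was at 8.04, 7.67 and 8.12 in het SE mice and at 7.56, 7.67 and 7.75 in het controls (0.28, adjusted p = 0.102, limma). Het SE mouse 2, the lowest of its group in Kcnj8, was also the lowest in the endothelial markers Pecam1, at 7.15 against 7.76 and 7.84 in the other het SE mice, and Flt1, at 9.21 against 9.80 in both others. Markers of endothelium and pericytes averaged 8.63 to 9.01 in het SE mice and 8.92 to 9.02 in het controls, and 1 of 5, the pericyte marker Pdgfrb, was called lower with SE. Without het SE mouse 2 the value for Kcnj8 was 0.42 and was called (adjusted p = 0.00361), as it was with array weights (0.33, adjusted p = 0.0263, both limma). The part of vascular cells in it was not tested. The value for Kcnj8 in mutants was of like size (0.24, adjusted p = 0.278, limma), without overlap there. Kcnk1, for the two-pore channel TWIK1 of neurons and glia, had 11.23, 11.19 and 11.20 in het SE mice, below 11.36, 11.46 and 11.38 in het controls (-0.19, adjusted p = 0.131, limma), the change of largest size among two-pore genes. Kcnk2, for the mechanosensitive two-pore channel TREK1, was at 9.14, 9.15 and 9.15 in mutant pilocarpine mice, 9.20, 9.28 and 9.04 in mutant controls, 9.36, 9.42 and 9.15 in het SE mice and 9.41, 9.28 and 9.40 in het controls. Within each treatment the mutants lay below the het mice, and across treatments mutant control mice 1 and 2 lay above het SE mouse 3. The averaged difference of -0.18 was not called (adjusted p = 0.0674, limma).

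Kcnj13, for Kir7.1 of the choroid plexus, varied most among mice of a group. It was at 7.15, 8.36 and 6.79 in mutant pilocarpine mice, 7.51, 5.67 and 7.03 in mutant controls, 7.12, 5.65 and 6.86 in het SE mice and 6.93, 6.98 and 6.58 in het controls. Its interval for SE, -1.37 to 0.79, was wide enough to hold a 2-fold fall. In mutants the value for pilocarpine was 0.70 and was not called (adjusted p = 0.57, limma). The 7 choroid plexus markers averaged 6.84 to 6.97 in mutant pilocarpine mice, 6.68 to 7.05 in mutant controls, 6.84 to 6.90 in het SE mice and 6.81 to 7.18 in het controls. Of them 1, Sostdc1, was called higher in mutants given pilocarpine and for the difference of effects, and its part in Kcnj13 was not tested. The gene overlaps Gigyf2.

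**Figure D4:**
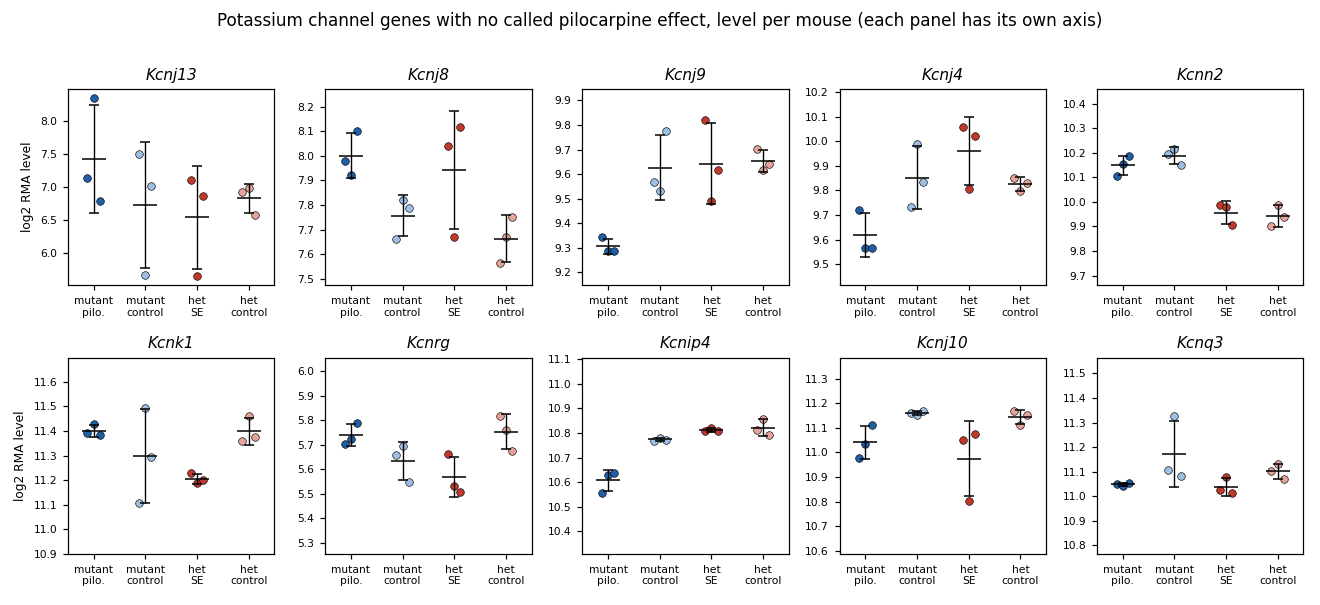
Log2 level of 10 potassium channel genes with no called effect of SE or of pilocarpine, 1 point per mouse in 4 groups of 3, with bars for mean and SD. The 6 mutant mice lie above the 6 het mice for Kcnn2 and below them for Kcnip4, and Kcnj13 spans more than 2 units.

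Subfamily averages stayed close to 0. Averaged over its 15 genes, the deviation of the inward rectifiers from each gene's mean was 0.11, -0.00 and 0.15 in het SE mice and 0.01, -0.01 and -0.06 in het controls. The mean change with SE was 0.11 over the 15 genes and -0.03 over the 14 without Kcnj2, and 9 of the 15 had negative changes. The two-pore genes averaged -0.03, -0.02 and -0.05 in het SE mice and 0.06, 0.03 and -0.03 in het controls. In mutants 12 of the 14 two-pore genes had positive changes with pilocarpine (median 0.07), and in het mice 10 of 14 had negative ones (median -0.04), but none was called in either genotype. Over all probe sets 48.2% of changes were positive in mutants given pilocarpine, and 61.2% were not positive in het SE mice.

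**Figure D5:**
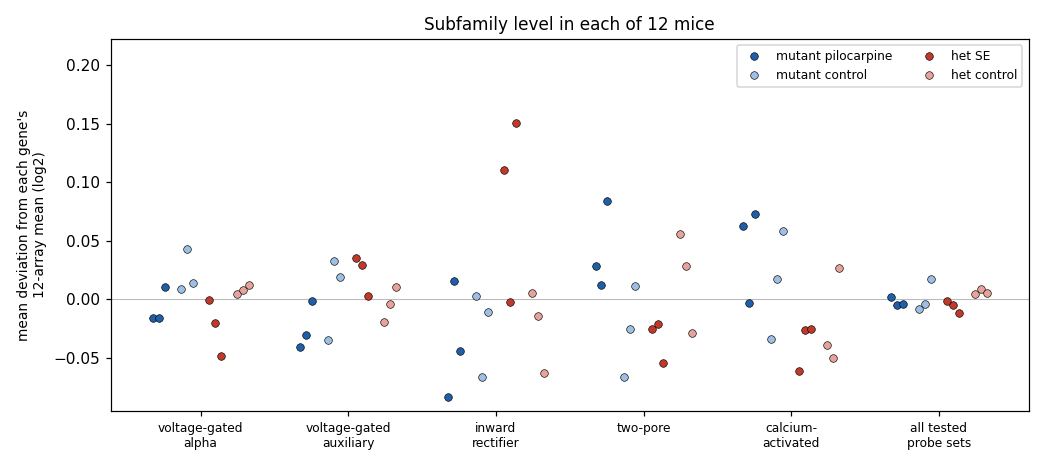
Mean deviation (log2) of each subfamily's genes from their own 12-mouse means, 1 point per mouse, in mutant pilocarpine, mutant control, het SE and het control mice, with all tested probe sets on the right. The inward rectifiers of het SE mice 1 and 3 lie above the other mice, and most other points lie closer to 0.

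Genes without a Kcn symbol that bind, anchor or regulate potassium channels were compared in the same way, 23 of 24 of them with a probe set. None was called for SE, for pilocarpine in mutants, for genotype without pilocarpine or for the difference of effects by limma. The largest change in het SE mice was that of Lrrc55, an auxiliary subunit of large-conductance calcium-activated channels, at -0.33 (adjusted p = 0.0818, limma), and in mutants its value was -0.46 (adjusted p = 0.0628, limma). The averaged genotype contrast was added after the data were seen and mixes genotype with SE. In it, 4 of the 23 were higher in mutants, where 3.31% of all probe sets were higher and 3.08% lower. These were Nedd4l (0.18, adjusted p = 0.00585), a ubiquitin ligase that regulates M-current channels, Lgi1 (0.16, adjusted p = 0.0246), a secreted protein mutated in a human epilepsy, Dlg2 (0.14, adjusted p = 0.0317), a scaffold, and Ank3 (0.15, adjusted p = 0.0407, all limma), the ankyrin of the axon initial segment.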

How the data were processed

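Hippocampal RNA of 12 mice was hybridised by the authors to Affymetrix Mouse Gene 1.0 ST arrays, 1 per mouse. From the scans they computed robust multiarray average (RMA) values in Affymetrix Expression Console, and the deposited values are on a log2 scale, already background-corrected, quantile-normalised and summarised per probe set. RMA compresses low signals, so changes of dim genes can be understated, and the number of arrays limits the precision.

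All 23410 probe sets to which the array's annotation assigns a gene were fitted with limma 3.58.1 in R 4.3.3 (lmFit and eBayes, a mean for each of 4 groups over all 12 arrays), with Benjamini-Hochberg adjustment of p over all of them. The contrasts were het SE minus het control, mutant pilocarpine minus mutant control, mutant control minus het control and the second minus the first; genotype averaged over both treatments was added after the data were seen. The members, gene lists and rule for naming genes were chosen with earlier results of these data known. Named were every member called in 1 of the 4 planned contrasts, fixed genes of hippocampal excitability, and the member of each subfamily with the largest change in het SE mice. The other genes named, among them Kcng3, Kcnip4, Kcnj4, Kcnj8 and Kcnj9, were chosen after their values were seen. All 92 symbols were found in the GRCm38.p6 gene table. In simulated data over 23410 probe sets with independent noise, 100 were changed by each of 0.5, 1 and 2 (log2). These were fewer than the probe sets called for SE in the data. For het SE, 87% of those changed by 0.5 and 100% of those changed by 1 were recovered, and 69% and 96% for the difference of effects. Changes under 0.5 were not simulated, so these rates do not apply to them. Tables and figures were made with Python 3.11.15, pandas 2.3.3 and matplotlib 3.10.9. Promoter windows are RefSeq sequence of GRCm38.p6. As alternatives, each array was left out in turn, and the fit was varied in its prior variance, normalisation, filter on dim probe sets, arrays and probe sets used, array weights, Xist covariate, replicate block and limits for a call (those used in the study).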

Additional observations from a re-analysis of the deposited data

Results flagged for a closer look

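For 5 genes the effect of pilocarpine differed between mutants and het mice by the limma interaction test. The difference (mutant minus het, log2) was -2.45 for Kcnj2, -0.97 for Kcne4, -0.36 for Kcnh7, -0.22 for Kcnj3 and 0.29 for Kcna3. Those of Kcnj2, Kcne4 and Kcna3 had an adjusted p under 0.05 in every alternative in which the gene was tested, while those of Kcnh7 and Kcnj3 were kept in 11 of 22 and 5 of 22. Kcnj2 and Kcne4 rose in het SE mice, and Kcna3 fell there. For Kcnj3 the larger part of the difference lay in mutants.

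Kcnrg, whose product regulates voltage-gated channels, was separated between groups in opposite directions in mutants and het mice. All 3 mutant pilocarpine mice, at 5.704, 5.723 and 5.789, lay narrowly above the mutant controls at 5.658, 5.696 and 5.549. All 3 het SE mice, at 5.66, 5.53 and 5.51, lay below the het controls at 5.82, 5.76 and 5.68, also by a narrow margin. The difference of 0.29 missed the threshold (adjusted p = 0.0787, limma), levels were low in every mouse, and the gene overlaps Trim13.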

How the results depend on the processing

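Kcnj2, Kcne4, Kcnv1 and Kcna3 stayed called for SE at an adjusted p under 0.05 in every alternative that tested them, Kcnj2, Kcne4 and Kcna3 also for the difference of effects, and no called result changed sign. Counts of called genes depended on settings. With array weights, 8 genes were lower in SE (4 otherwise), 4 were called in mutants given pilocarpine (2 otherwise) and 9 for the difference of effects (5 otherwise). In the mutants 5 were called with an intensity trend in the prior variance, 7 without dim probe sets, 1 after quantile normalisation again, 1 with the Xist covariate, 1 over all probe sets and 0 with only the compared groups. For the difference of effects, quantile normalisation and all probe sets gave 3 each. Without dim probe sets 1 gene, Kcnn2, was called between mutant and het controls (adjusted p = 0.0366, limma). At the limits used in the study (adjusted p under 0.001 and at least 2-fold), 1 gene was higher in SE (Kcnj2) and 0 lower, 0 were called in mutants, 1 for the difference of effects and 1 for averaged genotype.

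Leaving out 1 array gave 2 to 4 genes higher in SE, 2 to 6 lower (2 without het SE mouse 3 or het control mouse 3), 0 to 3 in mutants (0 without mutant pilocarpine mouse 2 or mutant control mouse 2), 3 to 5 for the difference and 4 to 12 for averaged genotype (12 without mutant control mouse 2).

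Deviations of same-numbered mice correlated at -0.31 to 0.32, and those of differently numbered mice at -0.44 to 0.39. Pairing by animal number was thus not shown, though 3 mice per group cannot exclude it. With the replicate block, 4 genes instead of 7 were called for averaged genotype. It also ended the calls of Kcnj3 in mutants (adjusted p = 0.0771) and for the difference (adjusted p = 0.0921, both limma), with counts of 2 and 4, and it changed no other count by over 1.5 times.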
